A study of Homo sapiens with 12 samples.

Results

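The transcriptome of untreated BEAS-2B cells was described from the 3 control libraries of a series of 12, chosen by their labels alone. BEAS-2B cells derive from human bronchial epithelium and were immortalised by an adenovirus-SV40 hybrid, so the data come from 1 line of 1 origin grown as a monolayer. All 12 libraries came from cells kept for 24 h in a medium free of serum and steroid before any agent was added, so the controls were serum-deprived too. The 3 control libraries received no agent, 3 received TGF-β1 (40 pM, 24 h), 3 received dexamethasone (30 nM, 4 h) and 3 received TGF-β1 for 24 h and then dexamethasone for 4 h. The vehicle is not stated in the labels. The design text calls the libraries of a group biological triplicates, but the labels do not say whether they were separate cultures or passages, so p-values measure the spread between these libraries. One label field, the growth protocol, describes A549 cells, while the source, cell type and treatment fields give BEAS-2B, and genes that bear on this are given with the lineage results.

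The bronchial surface is lined by a pseudostratified epithelium. Basal cells sit on the basement membrane, express TP63 and the keratin pair KRT5 and KRT14, anchor through hemidesmosomes and give rise to secretory and ciliated cells. Secretory cells make mucins and secretoglobins, and ciliated cells switch on FOXJ1 and the axonemal dynein genes. Epithelial cells in culture may also express mesenchymal genes such as VIM and FN1, and TGF-β is a well known inducer of that programme. A cell needs a receptor to respond to a ligand, so the untreated messenger RNA levels of receptor genes are given. Receptor protein was not measured, so these levels do not show which ligands the line could sense.

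Each gene was put in 1 of 3 classes from the control counts. A gene was called expressed at 1 CPM or more in each of the 3 libraries, silent at 3 reads or fewer over all 3 together, and low otherwise. CPM values are read counts relative to the library total, with library totals scaled by TMM factors. The level of 3 reads over the 3 libraries amounts to 0.0887 CPM, which is also the upper limit that a count of 0 allows. These limits cover counting error only. Of 28395 gene identifiers, 12931 were expressed (45.5%), 4764 were low and 10700 were silent (37.7%), of which 6638 had no read at all. Of 19171 protein-coding genes, 12036 were expressed (62.8%), 2981 low and 4154 silent. Long non-coding RNA genes were mostly off, with 495 of 4108 expressed. The control libraries held 6057590, 5861591 and 18989865 counts, and the 12 libraries ran from 5861591 to 19727235. Although replicate 3 was deeper, 13418, 13559 and 13497 genes reached 1 CPM in replicates 1, 2 and 3. Thinned by calculation to the depth of the shallowest library, the number of genes with a read was 17764, 18292 and 18136. Mitochondrial messenger RNAs took 1.85% to 2.40% of control counts and ribosomal protein genes 1.79% to 1.97%.

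The sequence just before the transcription start differed in CpG content between expressed and silent genes. CpG dinucleotides are rare in the human genome except in CpG islands, which mark many promoters. Over the 250 bases before the start, as RefSeq lists it on GRCh38.p14, the ratio of observed to expected CpG had a median of 0.83 for 9926 expressed protein-coding genes, 0.54 for 2225 low genes and 0.27 for 3179 silent genes. A ratio of 0.6 or more was found in 81.8% of the expressed, 46.4% of the low and 22.7% of the silent promoters, against 64.4% of all 15330. The motif TATAAA, searched on both strands, lay in 5.07% of expressed and 20.6% of silent promoters (9.13% of all). GGGCGG on either strand lay in 68.8% and 25.7% (56.8% of all). CCAAT on either strand differed little, at 35.3% and 35.5% (34.7% of all). GGGCGG contains a CpG, so its share and the CpG ratio are not separate measures. A promoter sequence was listed for 350 of the 497 genes of the lists used below, and the medians were 0.74 for 215 expressed, 0.45 for 70 low and 0.27 for 65 silent members.

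Windows of 5 genes are printed because they show the range behind the medians, with every CpG in capitals and the rest in lower case, read 5′ to 3′ on the strand of the gene and ending at the base before the start. DST, which encodes the hemidesmosome linker dystonin and had 11555 reads in control, has 39 CpG on the minus strand at chr6:56954831-56955080. TP63, which encodes the master transcription factor of basal cells and had 1076 reads, has 6 CpG at chr3:189631139-189631388. IL33, an alarmin of basal cells that had no read, has none at chr9:6214899-6215148. SCGB3A2, a secretoglobin of airway secretory cells that also had no read, has 2 CpG and a TATAAA at chr5:147878461-147878710. DNAI2, an axonemal dynein gene of ciliated cells with no read, has 16 at chr17:74273984-74274233. The last 4 of these lie on the plus strand.
DST: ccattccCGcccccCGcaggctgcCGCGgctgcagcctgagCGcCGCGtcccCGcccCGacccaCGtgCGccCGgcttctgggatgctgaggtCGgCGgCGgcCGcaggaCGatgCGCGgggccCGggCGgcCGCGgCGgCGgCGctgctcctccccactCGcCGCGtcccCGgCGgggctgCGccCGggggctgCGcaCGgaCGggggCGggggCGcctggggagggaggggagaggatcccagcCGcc
TP63: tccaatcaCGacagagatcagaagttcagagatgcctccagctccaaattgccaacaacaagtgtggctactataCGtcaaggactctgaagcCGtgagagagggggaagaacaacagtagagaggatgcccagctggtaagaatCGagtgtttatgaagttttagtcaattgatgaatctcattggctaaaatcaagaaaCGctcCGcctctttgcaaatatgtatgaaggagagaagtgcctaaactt
IL33: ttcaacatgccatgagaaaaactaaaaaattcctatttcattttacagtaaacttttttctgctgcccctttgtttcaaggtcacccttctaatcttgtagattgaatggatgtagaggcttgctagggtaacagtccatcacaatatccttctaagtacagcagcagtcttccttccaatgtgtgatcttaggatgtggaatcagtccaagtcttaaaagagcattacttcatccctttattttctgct
SCGB3A2: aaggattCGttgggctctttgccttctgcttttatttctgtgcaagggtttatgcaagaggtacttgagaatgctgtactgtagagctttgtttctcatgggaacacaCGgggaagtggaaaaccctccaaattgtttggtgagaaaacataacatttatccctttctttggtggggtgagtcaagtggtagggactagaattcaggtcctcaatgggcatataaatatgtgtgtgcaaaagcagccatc
DNAI2: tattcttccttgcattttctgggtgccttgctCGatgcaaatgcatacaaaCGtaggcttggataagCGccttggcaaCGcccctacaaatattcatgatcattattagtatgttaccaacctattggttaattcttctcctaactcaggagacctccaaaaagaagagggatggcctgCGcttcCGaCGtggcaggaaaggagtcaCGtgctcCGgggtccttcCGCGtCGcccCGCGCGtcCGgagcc
The ratio of observed to expected CpG was 0.91, 0.50, 0.00, 0.18 and 0.97 in that order. TP63 was an expressed gene whose printed window has few CpG, and DNAI2 a silent gene whose window has many. For DST 1 of 3 listed windows is shown and for IL33 1 of 2. Which start these cells used was not measured for any of the 5 genes. The printed window of TP63 therefore need not be the promoter in use.

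Cytoskeletal and mitochondrial genes were prominent among the transcripts with the highest CPM. Ranked by mean CPM, the mitochondrial large ribosomal RNA gene RNR2 came first at 6915, 8962 and 6578 CPM in replicates 1, 2 and 3. The cytoplasmic actins ACTB (6269 ± 368 CPM, SD, n = 3) and ACTG1 (6013 ± 597), the actin cross-linker FLNA (5150.0 ± 739), the small ribosomal RNA gene RNR1 (4682 ± 1821) and the mitochondrial respiratory genes COX1 and ND4 followed. Non-muscle myosin MYH9 (2991 ± 151), pyruvate kinase PKM, the cytolinker PLEC, thrombospondin THBS1, the scaffold AHNAK, enolase ENO1, elongation factor EEF2, GAPDH, tubulin TUBB and the mitochondrial ND5 and CYTB completed the 20 highest together with MALAT1 and PEG10. The nuclear non-coding RNA MALAT1 was at 1952 and 2271 CPM in replicates 1 and 2 and at 4582 in replicate 3, the highest of the 3. PEG10, an imprinted gene derived from a retrotransposon, was at 2356, 2172 and 2837 CPM.

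CPM grows with transcript length, so an order by CPM favours long transcripts and genes were also ranked per kilobase of exon. Members of each list are named below in order of CPM, and levels of different genes are compared only where the text says per kilobase. On that scale RNR1 (4908 CPM per kb) and RNR2 (4801) led, followed by ACTB (3149), the short actin-binding peptide TMSB10 (2674), ACTG1 (2522) and the mitochondrial COX3 (2385), COX2 (2375), ND4 (2366), COX1 (2286) and ATP6 (2068). Only 9 genes were among the 20 highest on both scales. The 53 expressed genes at 1000 CPM or more took 11.8% of control counts, the 2250 from 100 to 1000 CPM took 53.0%, and the 3218 below 10 CPM took 1.63%. Replicate spread was smallest in the middle: the median coefficient of variation was 18.6% from 1 to 10 CPM, 8.83% from 10 to 100, 6.59% from 100 to 1000 and 10.4% above. Library preparation selected polyadenylated RNA, so the mitochondrial ribosomal RNAs and MALAT1 are what passed that selection and not the cellular amount.

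**Figure D1:**
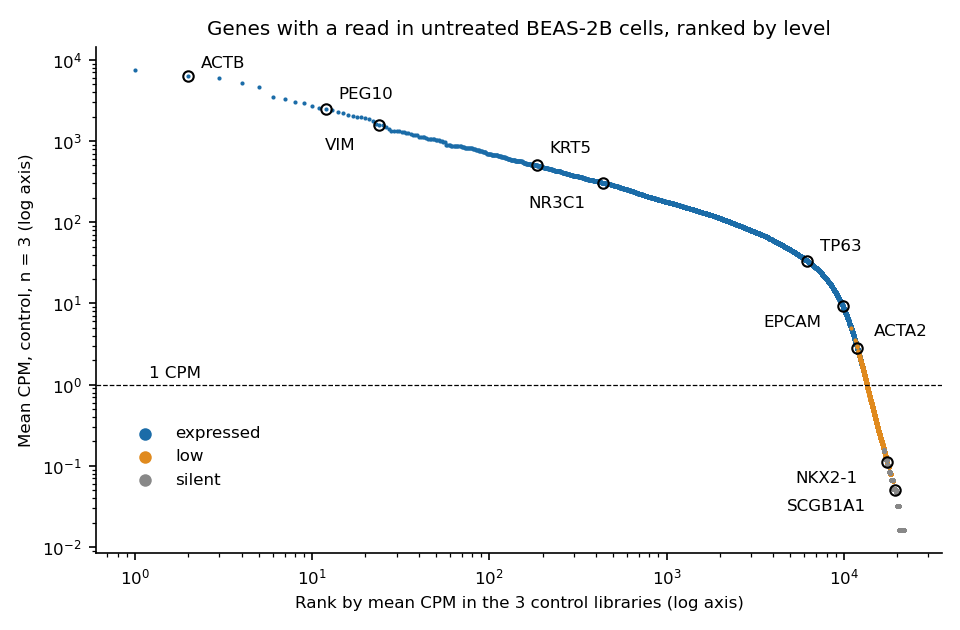
Mean CPM of each gene with a read in the 3 untreated libraries (vertical log axis, n = 3) against its rank (horizontal log axis), coloured by class, with the dashed line at 1 CPM. The circled genes run from ACTB at 6269 CPM through KRT5 at 501 and TP63 at 33.3 to SCGB1A1 at 0.0504 CPM, far below the line.

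Almost all genes of the basal list were expressed. The count depends on which genes were listed: SNAI2 is also in the mesenchymal list, and SOX2, which was low, is among the lineage factors below. Of 27 basal genes, 26 were expressed and 1, IL33, was silent with no read in any of the 3 libraries, against 62.8% expressed among all protein-coding genes. The median of the list was 60.9 CPM. Caveolin CAV1 (691 ± 86.8 CPM, SD, n = 3), the hemidesmosome integrin ITGB4 (597 ± 10.2), KRT17 (512 ± 161), KRT5 (501 ± 139.6), DST (334 ± 15.96), the laminin receptor BCAM (242 ± 45.5), S100A2 (209 ± 33.1) and ITGA6 (172 ± 25.0), the partner chain of ITGB4, were the highest. TP63 itself was at 35.4, 34.5 and 29.8 CPM. The laminin chains LAMA3 and LAMB3, part of the anchor of basal cells, were expressed at 115 ± 4.93 and 77.0 ± 17.2 CPM. The basal surface marker NGFR was present at 9.74 ± 1.55 CPM.

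Keratin levels placed KRT5 above its usual partner. Per kilobase, KRT5 stood 7.53-fold, 5.24-fold and 13.8-fold above KRT14 in replicates 1, 2 and 3. KRT14 was at 40.2, 82.2 and 18.4 CPM, and KRT15, another basal keratin, at 12.6, 17.5 and 11.8 CPM. Over the whole keratin family, 15 of 56 genes were expressed, 13 were low and 28 were silent. The simple-epithelial keratins KRT8 (582 ± 28.6 CPM), KRT7 (566 ± 148), KRT18 (358 ± 21.5) and KRT19 (186 ± 16.2) were expressed beside the basal keratins. KRT13 and KRT4, markers of squamous and suprabasal cells, were in the low class. KRT10, also a suprabasal keratin, was expressed at 44.79, 49.55 and 42.22 CPM, and KRT6A and KRT16 were expressed too, so such keratins were not uniformly low. KRT13 had 8 reads, while KRT4 was at 0.605, 13.5 and 0.675 CPM, so that replicate 2 held 87 of its 105 reads. Hair keratins of the same family fell into all 3 classes. KRT31, KRT33A, KRT35 and KRT37 had no read, and KRT83 and KRT85 were low at 15 and 13 reads. KRT81 (26.1 ± 6.79 CPM) and KRT86 (1.80 ± 0.856) were expressed. KRT14, KRT16 and KRT17 are near-identical over long stretches, as are the KRT6 genes, so reads may have been split among them in the authors' counting.

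Junction genes were expressed in 34 of 35 cases, with CLDN3 low at 16 reads. After the keratins above, the desmosome genes DSP (439 ± 12.99 CPM) and JUP (157 ± 27.3), and the tight-junction scaffold TJP1 (296 ± 11.7) were among the highest by CPM. The adherens-junction cadherin CDH1 was expressed at 104, 80.4 and 114 CPM. Some other members had a smaller CPM, which is not adjusted for length, and the list median was 41.8 CPM. The adhesion molecule EPCAM was at 9.37 ± 0.488 CPM, occludin OCLN at 12.4 ± 2.27, RAB25 at 4.19 ± 0.503, CLDN4 at 2.00 ± 0.0303 and the polarity gene CRB3 at 1.98 ± 0.743. EPCAM, OCLN, RAB25, CLDN4 and CRB3 were singled out after their values were seen. The epithelial splicing factors ESRP1 and ESRP2 were both on, at 12.2 ± 0.917 and 41.8 ± 3.60 CPM.

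The lung lineage factors fell into all 3 classes. Of 29 factors, 16 were expressed, 7 were low and 6 were silent. IRX2 (141 ± 7.68 CPM), SOX4 (112 ± 2.57), TFAP2A (109 ± 7.55), SOX9 (90.3 ± 2.69), KLF5 (69.5 ± 7.73), FOXP1 (67.1 ± 6.99), FOXA1 (39.2 ± 7.64) and ELF3 (38.1 ± 3.08) were the highest. NKX2-1, which specifies the lung and is needed for alveolar and club cell fates, had 7 reads in all, and SOX2, the factor of the proximal airway, had 4. FOXA2 had 22 reads in all, while its paralogue FOXA1 was expressed. FOXJ1, the switch for motile cilia, had 2 reads, SPDEF, which drives goblet cells, had 1, HOXA5 and FOXA3 had 1 each, and ELF5 had none. TP63 and FOXA1 were thus expressed while NKX2-1 and SOX2 were low.

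Markers of differentiated airway and alveolar cells were mostly low or silent. Of 20 secretory genes, 5 were expressed, 6 low and 9 silent. SCGB3A1, SCGB3A2, BPIFA1 and LYPD2 had no read, SCGB1A1, the classic club-cell product, had 1, MSMB and the cytochrome CYP2F1 had 1 each, and TFF3 had 3. The secreted antiprotease SLPI (16.4 ± 2.87 CPM), the mucins MUC1 (14.01 ± 3.23), MUC16 (5.22 ± 3.72) and MUC5B (5.05 ± 3.70), and WFDC2 (3.74 ± 0.185) were expressed. The gel-forming mucin MUC5AC was in the low class at 0.605, 4.96 and 0.289 CPM, above 1 CPM in replicate 2 alone. MUC5B was at 4.09, 9.14 and 1.93 CPM and MUC16 at 2.42, 9.45 and 3.81 CPM, so the 3 mucins were each highest in replicate 2.

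Of 20 ciliated-cell genes, 8 were expressed and 8 silent. The expressed ones, in order of level CAPS, CCNO, RFX2, RFX3, MCIDAS, CCDC39, MYB and CCDC40, lay between 1.65 and 8.47 CPM. The regulator MCIDAS was at 3.63 ± 0.374 CPM while its relative GMNC and its target FOXJ1 had 2 reads each. Of the other members, DNAI2, SNTN and DYNLRB2 had no read, TPPP3 and TEKT1 had 1, CIMAP3 had 3, and DNAH5, DNAI1, RSPH1 and CFAP43 were low at 18, 5, 6 and 16 reads.

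Of 14 alveolar genes, 5 were expressed, 6 low and 3 silent. RTKN2 (20.8 ± 2.40 CPM), the lipid transporter ABCA3 (11.4 ± 0.0912), the water channel AQP5 (11.3 ± 3.04), AGER (5.05 ± 1.402) and LAMP3 (4.75 ± 0.945) were expressed. The surfactant protein genes were not: SFTPC had 4 reads, SFTPB 13, SFTPD 4, SFTPA1 3 and SFTPA2 none. SFTPA1 and SFTPA2 are near-identical copies, so their counts are uncertain. Of 15 ionocyte, neuroendocrine and tuft-cell genes, only DCLK1 (28.7 ± 5.74 CPM), SYP (1.74 ± 0.637) and CHGB (1.61 ± 0.729) were expressed. The chloride channel CFTR was low at 7 reads, the ionocyte factor FOXI1 was silent at 3, NEUROD1 had 1, ATP6V1G3 3, and GRP and CALCA had none.

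**Figure D2:**
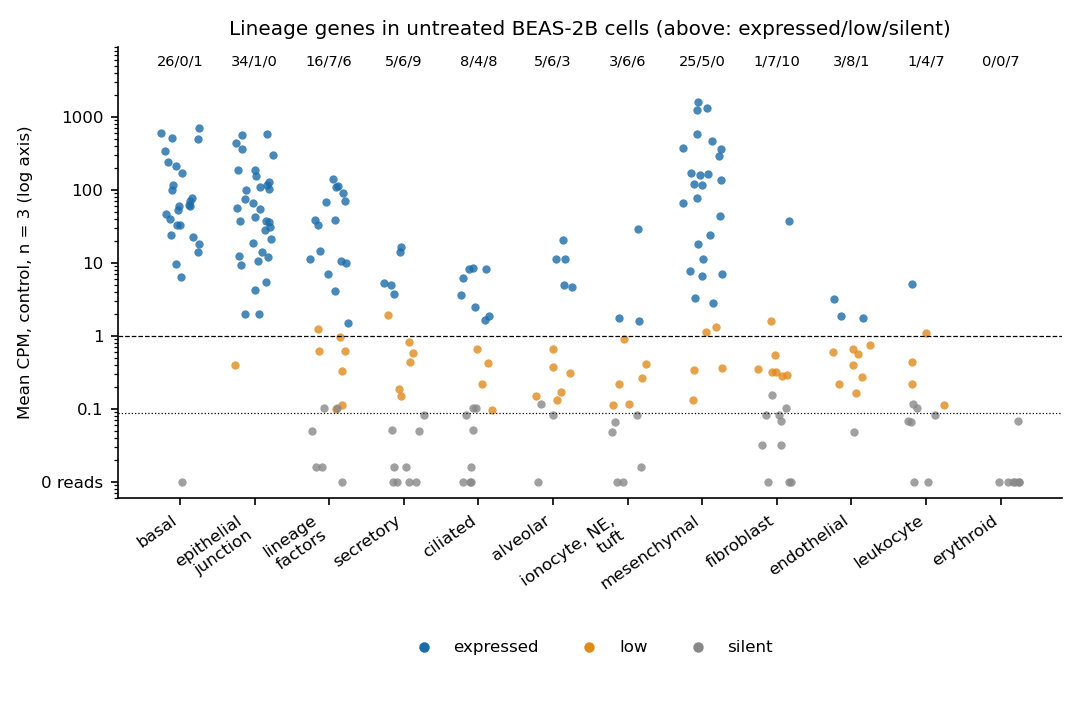
Mean CPM over the 3 untreated libraries (log axis, n = 3) of each gene in 12 lineage lists, 1 point per gene, coloured by class. The dashed line is 1 CPM, the dotted line the level of 3 reads over the 3 libraries, genes without a read sit at the bottom, a silent gene can lie just above the dotted line because the mean weights the libraries equally, and the numbers above count expressed, low and silent members. Basal, junction and mesenchymal points lie almost all above the dashed line, whereas secretory, ciliated, alveolar, fibroblast, leukocyte and erythroid points lie mostly below it.

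Mesenchymal genes were expressed beside the epithelial ones. Of 30 such genes, 25 were expressed, 5 low and none silent. The intermediate filament VIM was at 1697, 1715 and 1371 CPM, fibronectin FN1 at 1534, 1242 and 1191, and the matrix protein SPARC at 1390.0, 1225 and 1135. Of the exon length of VIM, 52.6% lies under exons of other genes, so part of its count could belong to those. COL1A1 (572 ± 109 CPM), fibrillin FBN1 (467 ± 41.8), COL5A1 (376 ± 39.4), COL6A1 (363 ± 85.1) and THY1 (290.0 ± 66.3) followed. Both cadherins of the epithelial and mesenchymal states were present: per kilobase, CDH2 stood 1.38-fold, 2.01-fold and 1.34-fold above CDH1 in replicates 1, 2 and 3. In the same units VIM stood 3.54-fold to 4.99-fold above KRT5.

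Chains of the same collagen differed in level. Type I collagen is a trimer of the COL1A1 and COL1A2 chains, yet per kilobase COL1A1 exceeded COL1A2 by 64.1-fold, 82.9-fold and 63.3-fold in the 3 libraries, and COL1A2 was at 8.62, 5.42 and 5.98 CPM. Type VI collagen holds the chain COL6A3, which was low at 1.67, 1.55 and 0.723 CPM, while COL6A1 exceeded it per kilobase by 588-fold to 1002-fold. COL5A1 and COL5A2 were closer, at 2.43-fold to 2.93-fold. COL3A1, the usual companion of type I collagen in stroma, had 6 reads. The smooth-muscle and myofibroblast genes were uneven too: MYL9 (166 ± 35.7 CPM) and TAGLN (77.6 ± 33.4) were expressed, ACTA2 was at 2.72, 2.48 and 3.18 CPM, and CNN1 had 10 reads.

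Transcription factors of the epithelial-mesenchymal transition were all on at different levels. TWIST1 was at 45.1, 44.4 and 43.7 CPM, ZEB1 at 20.6, 25.4 and 26.2, SNAI2 at 20.6, 22.1 and 12.4, ZEB2 at 12.1, 9.29 and 12.6, TWIST2 at 6.36, 9.29 and 7.95 and SNAI1 at 4.09, 2.32 and 3.42. These genes repress CDH1 in other settings, and CDH1 was expressed here, as given above. The factors below the 8 highest of the list were named after their values were seen.

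Fibroblast genes were mostly off. Of 18 genes that mark fibroblasts more narrowly, only PDGFRB was expressed, at 42.1, 36.5 and 34.0 CPM, 7 were low and 10 silent. LUM, DCN, PRRX1, FOXF1, TBX5, WT1 and MFAP5 had 2 or 3 reads each, and TBX4, MEOX2 and DPT had none. The silent calls of DPT, HBG2 and IL2RG concern genes whose exons lie for at least 50% under other exons, where reads may have gone uncounted. FAP was low at 1.97, 0.465 and 2.41 CPM, with replicate 2 lowest, and without that library 2 of the 18 genes were expressed.

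Most markers of blood and endothelial cells were low or silent. All 7 erythroid genes were silent, with 6 at no read, and HBA1 and HBA2 are near-identical copies. Of 12 leukocyte genes, 7 were silent, among them PTPRC at 3 reads and TYROBP and CD52 at none, and only CD14 was expressed (5.18 ± 1.42 CPM), or 2 genes without replicate 2. Of 12 endothelial genes, EGFL7, ROBO4 and CDH5 were expressed at 3.24 ± 1.26, 1.86 ± 0.519 and 1.78 ± 0.473 CPM and EMCN was silent. The summed level of the leukocyte list was 6.51 to 8.83 CPM in the control libraries and 6.64 to 14.3 CPM in the treated ones.

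Genes that are abundant in A549 cells were checked because of the label conflict. Of 14, 5 were expressed, 4 low and 5 silent. CPS1 (23.4 ± 1.80 CPM), ALDH3A1 (18.9 ± 14.8), SERPINA1 (15.1 ± 1.72), AKR1C3 (1.82 ± 1.105) and AKR1B10 (1.59 ± 0.440) were expressed. FGA and CEACAM6 had no read, FGG 1, and FGB and ALDH1A1 3 each, and AKR1C1, which shares sequence with AKR1C2, had 6. As background, A549 cells carry a deletion on chromosome 9 that takes out CDKN2A. In the control libraries CDKN2A was at 341, 315 and 314 CPM, its neighbour CDKN2B at 80.8, 101 and 82.8 and MTAP at 46.1, 48.6 and 46.1, and all 3 genes of that locus were expressed. The 3 also remained above 1 CPM in the 9 treated libraries, in which their summed level was 402 to 942 CPM.

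Proliferation genes were expressed throughout. All 25 genes of the cell-cycle list were expressed after serum withdrawal, with a median of 125 CPM. The proliferation marker MKI67 was at 1035, 909 and 1195 CPM, the topoisomerase TOP2A at 662, 642 and 737, the replication licensing factor MCM2 at 337 ± 16.4 and the clamp PCNA at 323 ± 28.3. The cyclin-dependent kinase inhibitor CDKN2A and the kinase CDK4 that it blocks were both expressed, at 323 ± 15.6 and 207 ± 22.5 CPM, and 51.9% of the exon length of CDK4 lies under other exons. CDKN1A, another inhibitor of the cycle, was at 155 ± 21.9 CPM and E2F1 at 153 ± 10.7. Telomerase TERT was expressed at 17.6, 17.6 and 15.0 CPM. Messenger RNA levels do not measure how many cells divide, and viral transcripts were not analysed here.

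Replicate 2 of the control group stood apart in a group of basal and squamous genes. KRT16 was at 9.38, 52.2 and 5.69 CPM, KRT6A at 20.9, 62.1 and 17.2, KRT14 at 40.2, 82.2 and 18.4, and the desmosomal PKP1 at 48.4, 114 and 35.1. Each was highest in replicate 2. In the other direction the lysosomal glycoprotein GPNMB was at 165, 15.5 and 176 CPM, the serine dehydratase SDS at 18.8, 1.86 and 25.4, cyclin CCND2 at 90.9, 19.7 and 102, the laminin chain LAMA1 at 20.9, 4.64 and 17.6, the nuclear receptor NR4A1 at 15.3, 4.18 and 17.9 and the phosphatase PTPRB at 14.4, 5.58 and 24.0. GPNMB, SDS, KRT16, CCND2, LAMA1, NR4A1, KRT14, PTPRB and the glycine transporter SLC6A9, which was highest in replicate 2 at 46.8 CPM, are among the 10 with the largest replicate spread at 10 CPM or more. Over all expressed genes, replicate 2 was the highest in 35.1% and the lowest in 37.0%, so it was not shifted as a whole, and the median standard deviation of log2 CPM was 0.137. In the basal list it was the highest in 16 of 26 genes and the lowest in 5. Libraries with number 2 in the treated groups deviated with it, as given with the comparison of the groups. What sets this library apart was not tested.

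**Figure D3:**
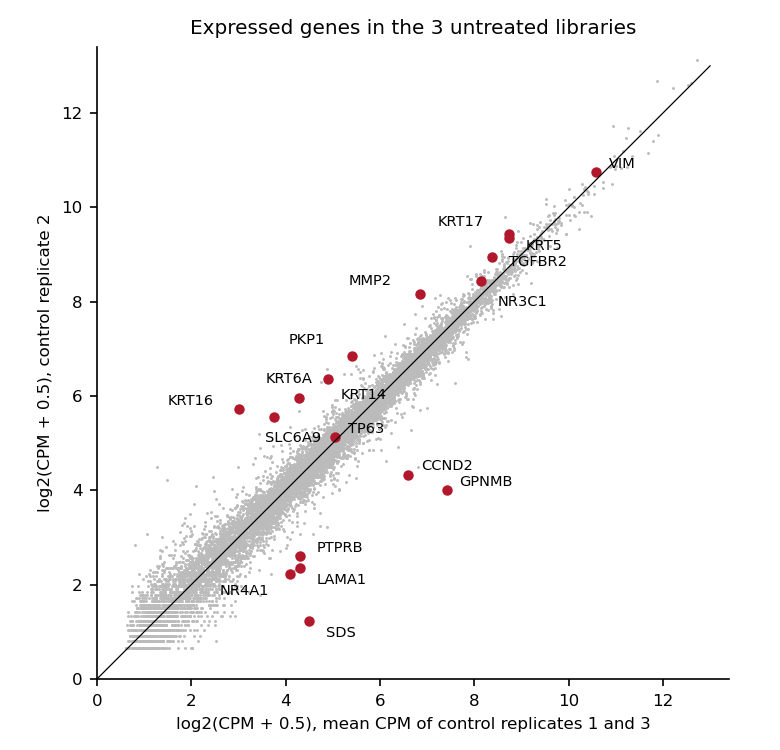
Each expressed gene in control replicate 2 (vertical axis, log2 of CPM + 0.5) against the mean of control replicates 1 and 3 (horizontal axis, same unit), with the line of equality. KRT16, KRT6A, KRT14, PKP1 and MMP2 lie above the line and GPNMB, CCND2 and SDS below it, while TP63, NR3C1 and VIM lie close to it.

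Receptors of the TGF-β family were expressed in 71.4% of cases, near the 62.8% of all protein-coding genes. For nuclear receptors, receptor tyrosine kinases and cytokine and death receptors the shares were 67.7%, 67.6% and 69.4%. They were 73.3% for steroid input, 77.8% for virus entry, 40% for Toll-like receptors, 44.7% for G protein-coupled receptors and 48% for secreted mediators. A TGF-β ligand binds the type II receptor TGFBR2, which then recruits and phosphorylates the type I receptor TGFBR1. Of 14 receptors and co-receptors, 10 were expressed, 3 low and 1, AMHR2, silent with no read. TGFBR2 was the highest at 362, 492 and 304 CPM. The type I receptor TGFBR1 was at 57.2, 49.9 and 69.5 CPM, and per kilobase TGFBR2 exceeded it by 8.89-fold, 13.9-fold and 6.16-fold. The bone morphogenetic protein receptor BMPR2 (161 ± 11.9 CPM), the co-receptors ENG (75.3 ± 5.47) and TGFBR3 (41.8 ± 5.68), ACVR1 (35.9 ± 1.66), ACVR1B (34.7 ± 1.01) and BMPR1A (18.1 ± 0.638) followed. ACVRL1, the endothelial type I receptor, was low at 5 reads, as were BMPR1B at 31 and ACVR1C at 10.

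Of 31 nuclear receptors, 21 were expressed, 8 low and 2 silent. The orphan receptor NR2F2 (328 ± 24.9 CPM) and the glucocorticoid receptor NR3C1 led. NR3C1 was at 274, 347 and 293 CPM, whereas the mineralocorticoid receptor NR3C2, which binds glucocorticoids too, was low at 1.21, 0.929 and 0.386 CPM. The retinoid partner RXRA (159 ± 5.55 CPM), the aryl hydrocarbon receptor AHR (143 ± 11.8), which is listed with them as a ligand-gated factor, NR2F6 (83.2 ± 6.49), NR1H2 (82.6 ± 2.63), RARG (76.2 ± 5.59) and RXRB (63.8 ± 5.73) followed. The progesterone receptor PGR had 4 reads, and the oestrogen receptor ESR1 was at 3.24 ± 0.486 CPM. ESR1 was named after its value was seen. The silent members were RXRG with 1 read and the bile acid receptor NR1H4 with none.

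Of 15 genes of steroid input, 11 were expressed, 2 low and 2 silent. HSD11B1, which turns cortisone into cortisol, was silent at 2 reads and HSD11B2, which does the reverse, was low at 25. The efflux pump ABCB1, which exports dexamethasone, had no read. The chaperones that hold the glucocorticoid receptor, HSP90AA1 (827 ± 19.5 CPM), HSP90AB1 (691 ± 8.23) and PTGES3 (253 ± 4.11), were all expressed. The receptor's target genes FKBP5, PER1 and TSC22D3 were expressed without added steroid. FKBP5 was at 158, 145 and 179 CPM, PER1 at 44.5, 34.5 and 42.2 and TSC22D3 at 39.8, 28.5 and 39.4. What set these levels was not tested.

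Of 34 receptor tyrosine kinases, 23 were expressed, 10 low and 1, ERBB4, silent at 3 reads. AXL was the highest at 689, 822 and 660.0 CPM. The ephrin receptors EPHB4 (252 ± 29.4 CPM), EPHA2 (239.9 ± 48.0) and EPHB2 (162 ± 29.9), the epidermal growth factor receptor EGFR (221 ± 16.1), the collagen receptor DDR1 (172 ± 2.72), the hepatocyte growth factor receptor MET (146 ± 3.11) and ERBB2 (139.8 ± 3.68) followed. EGFR and ERBB2 were thus expressed, ERBB3 was at 12.5 ± 2.23 CPM and ERBB4 was silent. PDGFRA was low at 9 reads while PDGFRB was expressed, and the vascular receptors FLT1, KDR and FLT4 had 4, 8 and 5.

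Of 36 cytokine and death receptors, 25 were expressed, 2 low and 9 silent. The shared signal chain IL6ST was at 280.1, 247 and 381 CPM and per kilobase exceeded the ligand-binding chain IL6R by 4.80-fold to 6.11-fold. TNFRSF12A (207 ± 16.8 CPM), TNFRSF1A (138 ± 5.84), OSMR (124 ± 13.51), TNFRSF10B (103 ± 21.5), IFNAR1 (86.9 ± 5.10), IL7R (61.9 ± 23.0) and IL17RC (52.7 ± 4.98) followed. The chains IL4R and IL13RA1, which bind the cytokines of allergic inflammation, were expressed at 27.8 ± 4.05 and 44.6 ± 5.87 CPM, and the decoy IL13RA2 had no read. IL1RL1, the receptor of IL33, had 1 read, and the ligand gene had none. CRLF2, the receptor chain for the alarmin TSLP, had 1 and CSF2RA none, and both lie in the pseudoautosomal region, which is present on a pair of chromosomes in the build, so reads may have gone uncounted. The blood-cell chains IL2RA, IL2RG, IL5RA, IL10RA and CSF2RB had 1 to 3 reads.

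Of 10 Toll-like receptors, TLR4 (28.3, 26.0 and 21.8 CPM), TLR3 (7.69 ± 1.03), TLR6 (4.19 ± 1.12) and TLR2 (2.49 ± 0.959) were expressed. TLR7, TLR8 and TLR10 were silent with 2, 0 and 1 reads. TLR4 senses bacterial lipopolysaccharide and TLR3 double-stranded RNA.

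Of 47 G protein-coupled receptors, 21 were expressed, 10 low and 16 silent. The thrombin receptor F2R was at 242, 239 and 240.1 CPM. The lysophosphatidic acid receptor LPAR1 (87.5 ± 23.1 CPM), the adenosine receptor ADORA2B (54.7 ± 8.58), the tryptase receptor F2RL1 (45.5 ± 5.67), S1PR3 (34.4 ± 5.01), the histamine receptor HRH1 (27.6 ± 0.501), the oxytocin receptor OXTR (25.5 ± 5.61) and ADORA1 (18.6 ± 1.97) followed. The adrenoceptor ADRB1 was low at 35 reads and ADRB3 had none. Of the muscarinic receptors, CHRM1, CHRM2 and CHRM3 were low at 57, 4 and 22 reads. The chemokine receptors CXCR1, CXCR4 and CCR3 had no read, CXCR2 and CXCR3 had 2 each and CCR1 had 1. The leukotriene receptor CYSLTR1 had 2, the prostaglandin receptor PTGDR2 had 1 and PTGER3 had none.

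Among 18 genes used by respiratory viruses, 14 were expressed. The endosomal proteases CTSB (902, 565 and 829.6 CPM) and CTSL (60.1 ± 12.8), BSG (618 ± 55.5), NRP1 (294 ± 20), the coronavirus receptor ANPEP (122 ± 21.6), CD46 (108 ± 14.6) and the protease FURIN (89.5 ± 7.51) were among the highest. ICAM1, the receptor of major-group rhinoviruses, was at 51.0, 22.4 and 38.9 CPM. TMPRSS2, a surface protease that activates several respiratory viruses, was silent with 1 read. CDHR3, the receptor of the C group of rhinoviruses and a ciliated-cell gene, was low at 5 reads.

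Secreted mediators were few. Of 25, 12 were expressed, 7 low and 6 silent, with a median of 1.21 CPM. CSF1 had the highest CPM of the list at 219, 155 and 184 CPM. LIF (20.7 ± 3.78 CPM), IL18 (16.4 ± 3.37), CCL2 (11.7 ± 3.95), CXCL1 (6.48 ± 1.87), IL11 (5.27 ± 1.38), CXCL5 (4.79 ± 0.193) and IL6 (4.37 ± 1.64) followed, and CXCL8 was at 3.33, 4.80 and 1.93 CPM. TNF and CCL20 were silent at 3 reads, CCL5 at 1, and CXCL10, IL25 and IL33 had none.

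**Figure D4:**
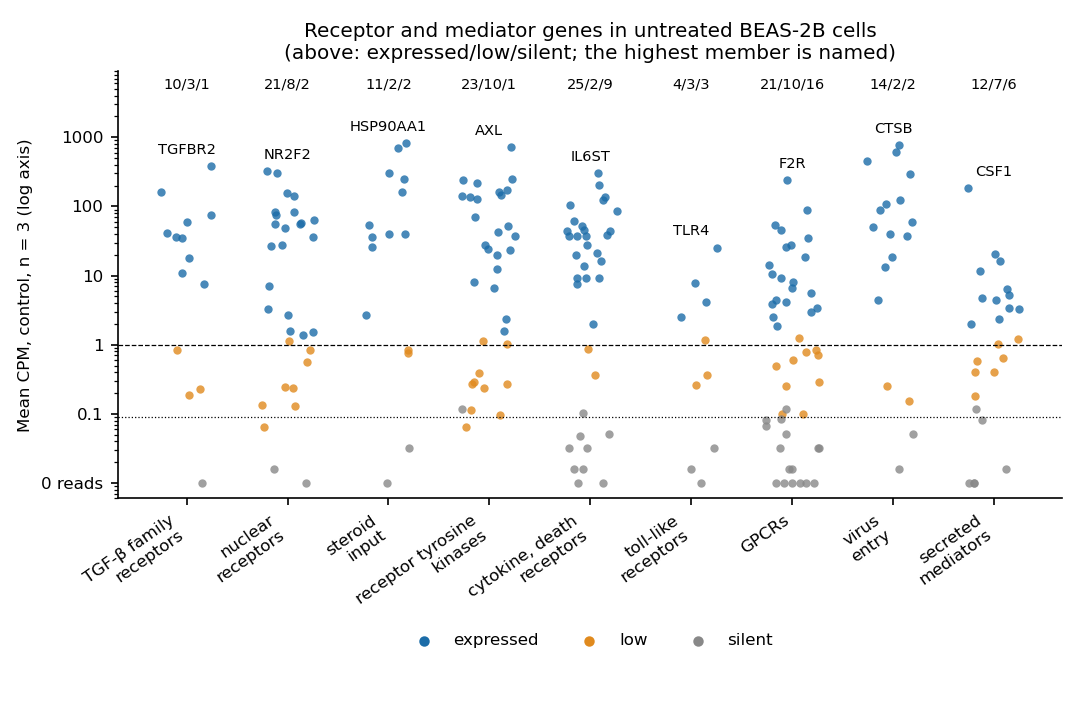
Mean CPM over the 3 untreated libraries (log axis, n = 3) of each gene in 9 lists of receptors, steroid-handling genes, virus entry genes and mediators, coloured by class, with the same lines and counts as for the lineage lists. The named highest members run from TLR4 at 25.4 CPM to HSP90AA1 at 827 CPM, and the G protein-coupled receptors have 16 silent members.

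The baseline was set against the treated groups by class and by test. No list gene that was silent in control became expressed. Of the 102 silent list genes, 84 were silent and 18 low after TGF-β1, 88 and 14 after dexamethasone and 79 and 23 after both. Over all 10700 silent identifiers, 8, 10 and 14 were expressed after TGF-β1, dexamethasone and both. The low class took 6.57%, 8.44% and 6.71% of these identifiers, against 17.6%, 13.7% and 22.5% of the silent list genes. Only 4154 of the 10700 silent identifiers are protein-coding, so they are not a set like the lists. The share over protein-coding genes alone is not given. Of the 295 expressed list genes, 279, 282 and 273 were expressed after the 3 treatments, and 12470, 12636 and 12426 of all 12931 were. Of the 100 low list genes, 13, 7 and 15 became expressed, against 7.64%, 7.12% and 8.71% of all 4764 low identifiers, of which 2981 are protein-coding. The classes were set on the control counts themselves, so some movement across the 1 CPM line comes with that choice, and no test was made of these counts. SCGB1A1, FOXJ1, NKX2-1, SFTPC, TMPRSS2 and HSD11B1 were not expressed in any of the 4 groups.

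The 3 contrasts against control were tested over all genes with edgeR's quasi-likelihood test, and because they share the control libraries they are given side by side only. With TGF-β1, 2186 of 13469 genes tested were higher (16.2%) and 2230 lower (16.6%) at an adjusted p under 0.05. With dexamethasone 746 were higher (5.54%) and 660 lower (4.9%), and with both 2491 were higher (18.5%) and 2434 lower (18.1%). The scaling set the balance of these counts: with library size alone the median of all genes was at -0.217, -0.052 and -0.271 on the log2 scale and the share of higher calls fell from 49.5%, 53.1% and 50.6% to 22.4%, 43.2% and 21%. Libraries with the same number deviated together in all 18 pairs of such libraries from different groups (correlation across genes 0.25 to 0.541). With the number as a block TGF-β1 gave 3308 higher and 3433 lower genes and dexamethasone 1461 and 1535. A low or silent gene enters the test mostly where treated libraries raise it, so counts over tested members are read against these shares and not as support for a list.

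Most mesenchymal genes were expressed at rest, and most of those tested were higher with TGF-β1. Of 29 tested, 20 were higher and 2 lower (median log2 fold change 1.02, against -0.01 over all genes), and with both agents 20 were higher and 0 lower (median 1.33). With dexamethasone alone 3 were higher and 0 lower, or 6 and 2 with the block. The 29 include COL6A3, CDH11, CNN1 and DDR2, which were low in control and expressed with TGF-β1. Such members can enter the test through treated libraries, so these counts and medians are a description only. COL1A2, the scarce chain of type I collagen, was at 8.62, 5.42 and 5.98 CPM in control and rose by 5.02 on the log2 scale (SE 0.18, edgeR adjusted p = 5.18e-10) with TGF-β1. COL6A3, the scarce chain of type VI collagen, was low in control at 1.67, 1.55 and 0.723 CPM and stood at 63.5, 39.4 and 63.0 CPM with TGF-β1. It passed the count filter through the treated libraries, so no test is given for it. COL1A1 rose by 4.21 (SE 0.20, edgeR adjusted p = 7.41e-09), while COL6A1 did not pass the test (0.31, SE 0.27, edgeR adjusted p = 0.409; 0.0311 with the block). CDH11, at 13 reads in control, reached 5.42, 8.03 and 6.44 CPM. FAP reached 105, 26.7 and 130 CPM, with the library numbered 2 lowest as in control.

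Most of the junction and lineage genes that passed the test were lower with TGF-β1. Of 34 junction genes tested, 17 were lower and 2 higher with TGF-β1 (median -0.41) and 18 lower and 4 higher with both (median -0.57). With dexamethasone 2 were lower and 3 higher, or 5 and 8 with the block. Of 17 lineage factors, 8 were lower and 2 higher with TGF-β1, 8 and 3 with dexamethasone, and 7 and 3 with both. ELF3, at 37.5, 35.3 and 41.4 CPM in control, fell by 3.14 on the log2 scale with TGF-β1 (SE 0.20, edgeR adjusted p = 5.62e-08) and fell by 2.02 with dexamethasone (SE 0.18, edgeR adjusted p = 2.34e-06). FOXA1 fell by 3.06 with TGF-β1 (SE 0.23, edgeR adjusted p = 3.38e-07). SOX9 fell by 2.68 with dexamethasone (SE 0.24, edgeR adjusted p = 1.05e-05), and its TGF-β1 value of -0.36 (SE 0.22) did not pass (edgeR adjusted p = 0.23), although it did with library size alone (0.0369) and with only the 6 libraries compared (0.0155). TFCP2L1, a further factor of the list at 11.3 ± 2.19 CPM in control, rose by 4.46 with dexamethasone (SE 0.33, edgeR adjusted p = 4.55e-06).

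The basal list did not move in 1 direction. With TGF-β1, 6 of 26 were higher and 5 lower, or 12 and 9 with the block; with dexamethasone 2 and 4, or 9 and 5; and with both 10 and 4, or 14 and 9. Its median with TGF-β1 was 0.14 and turned to -0.07 with library size alone. KRT15 fell by 3.23 with TGF-β1 (SE 0.23, edgeR adjusted p = 1.78e-07), whereas the TGF-β1 values of TP63 (0.26, SE 0.15, edgeR adjusted p = 0.208; 0.0119 with the block) and KRT5 (0.26, SE 0.36, adjusted p = 0.625; 0.03 with the block) did not pass. The alveolar genes that the cells expressed at rest included AQP5 and ABCA3: AQP5 fell by 3.66 (SE 0.37, edgeR adjusted p = 4.79e-06) and ABCA3 fell by 3.07 (SE 0.32, edgeR adjusted p = 6.31e-06) with TGF-β1. Of the A549-associated genes, ALDH3A1 fell by 3.26 (SE 0.93, edgeR adjusted p = 0.0221), which was lost without control replicate 2 (-2.45, edgeR adjusted p = 0.0643), without TGF-β1 replicate 1 (adjusted p = 0.0633) or 3 (adjusted p = 0.104) and with no filter on low counts (adjusted p = 0.0637). In the same list AKR1B10 fell by 3.04 (SE 0.65, edgeR adjusted p = 0.0024).

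Receptor genes changed in both directions around the baseline described above. With TGF-β1 the counts higher and lower were 4 and 2 of 10 TGF-β family receptors, 3 and 7 of 20 nuclear receptors, 8 and 4 of 26 receptor tyrosine kinases, 4 and 6 of 26 cytokine and death receptors (6 and 9 with the block), 10 and 6 of 23 G protein-coupled receptors and 5 and 2 of 14 virus entry genes (6 and 6 with the block). With dexamethasone they were 1 and 0 of the TGF-β family receptors (2 and 1 with the block), 4 and 4 of the nuclear receptors (4 and 8), 5 and 2 of the tyrosine kinases (7 and 6), 5 and 3 of the cytokine and death receptors (7 and 7), 3 and 6 of the G protein-coupled receptors and 2 and 3 of the virus entry genes (2 and 6). The medians of the tyrosine kinases and of the cytokine and death receptors with TGF-β1 were both 0.05 and turned to -0.16 and -0.15 with library size alone, so no direction is given for either list. TGFBR2 fell by 1.02 (SE 0.17, edgeR adjusted p = 0.00061), TGFBR3 fell by 2.07 (SE 0.18, edgeR adjusted p = 8.79e-07), and TGFBR1 did not pass without the block (0.52, SE 0.22, edgeR adjusted p = 0.0966; 3.79e-05 with the block, 0.042 with DESeq2 and 0.031 without TGF-β1 replicate 2). NR3C1 fell by 1.30 with dexamethasone (SE 0.14, edgeR adjusted p = 2.96e-05). KDR, at 0, 0.619 and 0.193 CPM in control, was at 163, 335 and 183 CPM with dexamethasone. PTGER2, a prostaglandin receptor at 5.30, 4.34 and 3.81 CPM in control, rose by 3.20 with dexamethasone (SE 0.19, edgeR adjusted p = 5.52e-08). P2RY6, a nucleotide receptor with 2 reads in control, was at 1.75, 0.926 and 2.13 CPM with TGF-β1. KDR and P2RY6 were too low in control to pass the count filter except through treated libraries, so no test is given for them.

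Most of the mediators that were tested were lower in each treated group. Of 14 tested, 9 were lower with TGF-β1 and 2 higher, 9 and 1 with dexamethasone, and 9 and 2 with both. IL6, at 6.20, 3.87 and 3.04 CPM in control, fell by 3.63 with dexamethasone (SE 0.49, edgeR adjusted p = 0.000147) and was -0.22 (SE 0.35) with TGF-β1, which did not pass (edgeR adjusted p = 0.671). LIF fell by 2.70 with dexamethasone (SE 0.38, edgeR adjusted p = 0.000589) and rose by 1.69 with TGF-β1 (SE 0.30, edgeR adjusted p = 0.00125). IL1B fell by 3.11 with TGF-β1 (SE 0.48, edgeR adjusted p = 0.000208). Of 25 cell-cycle genes, 5 were higher and 7 lower with TGF-β1, or 6 and 14 with the block, and all 25 were tested because all were expressed at rest.

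**Figure D5:**
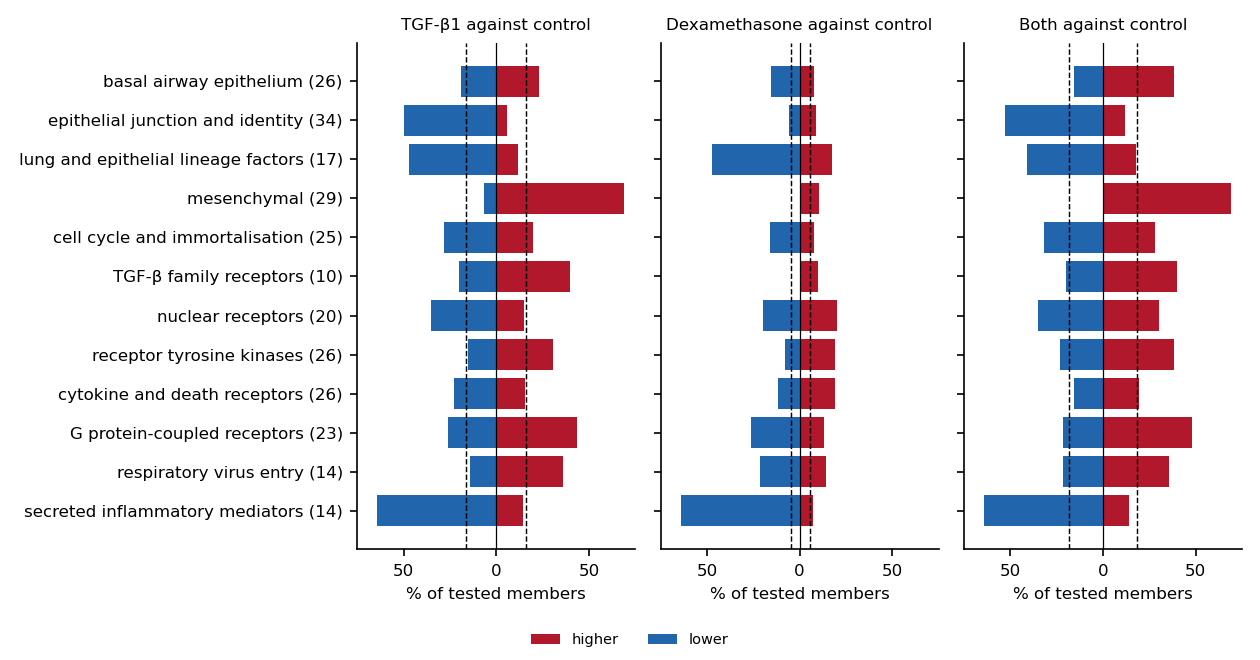
Percent of tested members of 12 lists that were higher (right) or lower (left) than control at an edgeR adjusted p under 0.05, in 3 panels for TGF-β1, dexamethasone and both, with the number tested in brackets. Dashed lines give the share over all 13469 genes tested, for example 16.2% higher and 16.6% lower with TGF-β1. The mesenchymal bar at 20 of 29 higher and the mediator bar at 9 of 14 lower extend past them. Tested members include some that were low in control.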

How the data were processed

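Poly(A)-selected RNA was sequenced with a non-directional kit in 12 labelled libraries, 3 in each of 4 groups. The authors deposited raw read counts per Entrez gene, made with featureCounts on hg38 per the submitters' processing notes. For the aligner, all versions and the treatment of reads that overlap 2 genes, nothing is given in the sources used here. Another 6 count columns of the deposited table matched no label and were not used.

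Symbols were matched for 27745 of 28395 identifiers (99.943% of counts) and exon lengths for 26530, with RefSeq tables (GRCh38.p14) and GENCODE. Levels were expressed as CPM after TMM scaling (factors 0.882 to 1.1). The 12 libraries were fitted together in edgeR 4.0.16 (R 4.3.3) with the quasi-likelihood test, after a filter at a minimum count of 10 that left 13469 genes, with Benjamini-Hochberg adjustment over all of them and a threshold of 0.05. The fitting code was tested on simulated data. DESeq2 1.42.0, library size alone, other filters and limits, and each library left out were alternatives. Same-numbered libraries of different groups correlated above 0.1 in all 18 pairs of libraries (0.25 to 0.541). The numbers were therefore taken as pairing them, and a fit with the number as a block was an alternative. The block lowered the biological coefficient of variation from 0.122 to 0.0577.

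The genes named were the 20 with the highest CPM, the 10 with the highest level per kilobase, up to 8 highest members and the silent and defining low members of each list, list members with the largest changes past the test, and up to 10 expressed genes with the largest spread in control. A few further genes chosen after their values were seen are marked or given as list members, and some genes that meet the rule are not reported here. The members and lists were chosen with earlier results of these data known.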

Additional observations from a re-analysis of the deposited data

How the results depend on the processing

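A silent limit of 0 reads in place of 3 left 6638 silent genes, and ranking per kilobase kept 9 of the 20 highest genes. With library size alone the counts of higher and lower genes were 1251 and 4332 for TGF-β1 and 1416 and 5342 for both agents. With the replicate number as a block they were 3308 and 3433 for TGF-β1 and 1461 and 1535 for dexamethasone. For both agents the block gave 3567 and 3590, within 1.5 times the counts without it. Leaving out 1 library at a time gave 13064 to 13146 expressed and 11101 to 12669 silent genes. It gave 1593 to 2024 higher and 1773 to 2033 lower genes for TGF-β1, 579 to 661 and 488 to 567 for dexamethasone, and 1979 to 2386 and 1857 to 2178 for both. Of the values for named genes with TGF-β1, KRT5 ranged from -0.16 to 0.50 with 1 library left out (negative without TGF-β1 replicate 2), and IL6 from -0.53 to 0.10 (positive without TGF-β1 replicate 2, at 0.03, or control replicate 1). Neither KRT5 nor IL6 passed the test with TGF-β1 in the first place. The cause of these shifts was not tested. Control replicates 1 and 2 held fewer counts than replicate 3, so the silent class rests mostly on that library, and a count of 0 allows a level of up to 0.0887 CPM.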

Other observations

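Gene families outside the lists were described by symbol, and the members named here were chosen after their values were seen. Of 39 HOX genes, which record position along the body axis, 6 were expressed and all 6 lie in the HOXB cluster, with HOXB2 at 35.2 CPM, HOXB3 at 34.9, HOXB4 at 19.3, HOXB5 at 5.61, HOXB7 at 5.60 and HOXB6 at 3.18. Another 14 were low and 19 silent. Of 12 imprinted genes, 6 were expressed, with PEG10 at 2455 CPM, MEST at 187, GRB10 at 69.3, KCNQ1OT1 at 17.8, CDKN1C at 16.3 and PLAGL1 at 11.9. H19, IGF2 and MEG3 were low at 62, 30 and 14 reads, NDN was silent at 1 read, and DLK1 and PEG3 had none.

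Of 12 laminin chains, 9 were expressed, among them LAMA5 (670 CPM), LAMC1 (513), LAMB1 (423) and LAMB2 (363) beside the basal chains. Of 26 integrins, 17 were expressed, with ITGA3 at 1582 CPM, ITGB1 at 747 and ITGB4 at 597. The leukocyte integrins ITGAM, ITGAX, ITGAD and ITGAL were silent with 2, 1, 2 and 1 reads. Of 24 claudins, 9 were expressed, and CLDN11 had the highest CPM of them at 103, followed by CLDN1 at 37.8, CLDN12 at 27.9 and CLDN7 at 21.1. Of 44 collagen chains, 25 were expressed, 16 low and 3 silent.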
